A study of Homo sapiens with 4 samples.

Results

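BIK, BMF, HRK, BAD, BID, BBC3, PMAIP1 and BCL2L11 were the BH3-only death genes followed on the array, 8 of the 43311 gene names of its design. Every probe carrying one of these names was used, 14 in all. The set was chosen by gene name, but with measured values of these same arrays in view, because high AZA/vehicle ratios of BIK and BMF in MDS-L cells were already known. The ratios of the members are therefore a description and carry no test.

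MDS-L cells are a human line derived from a patient with MDS. MDS-L/CDA cells were made AZA-resistant from it by transduction of CDA, the gene of an enzyme that deaminates cytidine and drugs like it. Both lines were grown with IL-3 and were treated for 72 h with AZA, a DNA-demethylating drug, at 1 μM, or with DMSO at 0.1% as the vehicle. RNA of each of the 4 conditions was hybridized to 1 one-colour Agilent array, so every comparison below is between 2 arrays and has no replicate check. The treatment field of the labels names DMSO for both MDS-L arrays and AZA for both MDS-L/CDA arrays, whereas 3 other fields (title, description and source name) give the conditions used here for every array. The titles of the AZA arrays give the dose in mM, and the other fields in μM. None of the 4 arrays had the 1 probe for CDA well above background, so the values give no check of the transduction, and whether it targets the transduced sequence is not given in the sources used here. Whether MDS-L/CDA is 1 clone is not given either, and no array came from MDS-L cells with an empty vector. In RNA from bulk cells, fewer cells expressing a gene and less RNA per cell cannot be told apart.

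BH3-only proteins start the mitochondrial pathway of apoptosis. They bind the survival proteins of the BCL2 family through their BH3 domain, and some of them also activate the effectors BAX and BAK1, which open the outer mitochondrial membrane and release cytochrome c to the caspases. BIK, BMF, HRK, BAD and PMAIP1 are regarded mainly as sensitizers, which occupy the survival proteins. BID, BCL2L11 and BBC3 are regarded as activators. Members of the family are silent or held in check until a stress induces or modifies them, and in blood cells they set how readily cytokine loss or a drug leads to death.

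The probes are shown first, because several members had more than 1 probe and their probes did not always give the same ratio. Each probe is 60 bases long, and the first 30 bases are printed 5′ to 3′ with their position in hg19, the build of the deposited files. All letters are in lower case, since no base is singled out. The probes of BMF, BID and BCL2L11 are set under that of BIK so that it can be seen that they read different stretches of the same gene.
BIK, chr22:43525495-43525524, + strand: ttttcgttttttctaaaagatgaattccta
BMF probe 1, chr15:40380480-40380509, - strand: ctggtggggacttttgagtcttgaggggat
BMF probe 2, chr15:40384014-40384043, - strand: tgcacaaccttgctttgaatggagaagaga
BID probe 1, chr22:18218295-18218324, - strand: actggctaaagctcgatgtggtcacagctg
BID probe 2, chr22:18218212-18218241, - strand: gaagacaggctggaagatagctgtgacttc
BCL2L11 probe 1, chr2:111925892-111925921, + strand: acttgtgttttgcactgatgaattttgaca
BCL2L11 probe 2, chr2:111878705-111878734, + strand: cctttcttggcccttgttcccccaaatgtc
BCL2L11 probe 3, chr2:111886352-111886381, + strand: ctctctccctcttccttgagcattttgtca
The starts of both BID probes lay 83 bases apart, whereas those of BCL2L11 probes 1 and 2 lay 47187 bases apart and those of probes 2 and 3 lay 7647 bases apart. The array design assigned BCL2L11 probe 1 to the transcript NM_138621 and probes 2 and 3 to NM_207002. Both BMF probes were assigned to NM_001003940 and both BID probes to NM_197966. Whether each probe lies in a coding exon or in an untranslated stretch was not analysed here.

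Levels are given as relative signal, the background-subtracted brightness of a probe divided by the 75th percentile of its array, so that 1 stands for that percentile. Levels of different probes were not compared with each other. The scanner software marked a signal as well above background or not, and the lowest signal so marked was 0.190 on both MDS-L arrays and 0.272 and 0.296 on the MDS-L/CDA arrays with vehicle and with AZA. Of the 14 probes of the members, 9 were well above background on all 4 arrays and 3 on none. Where 1 array of a pair was not well above background, a lower bound of the ratio was taken by raising the dim signal to the lowest marked one. No spot was saturated. Probes printed in 10 spots gave a standard deviation between spots of 0.18, 0.22, 0.24 and 0.29 on the log2 scale for vehicle and AZA in MDS-L cells, then vehicle and AZA in MDS-L/CDA cells. This spread covers the place of a spot on the array and not separate cultures.

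**Figure D1:**
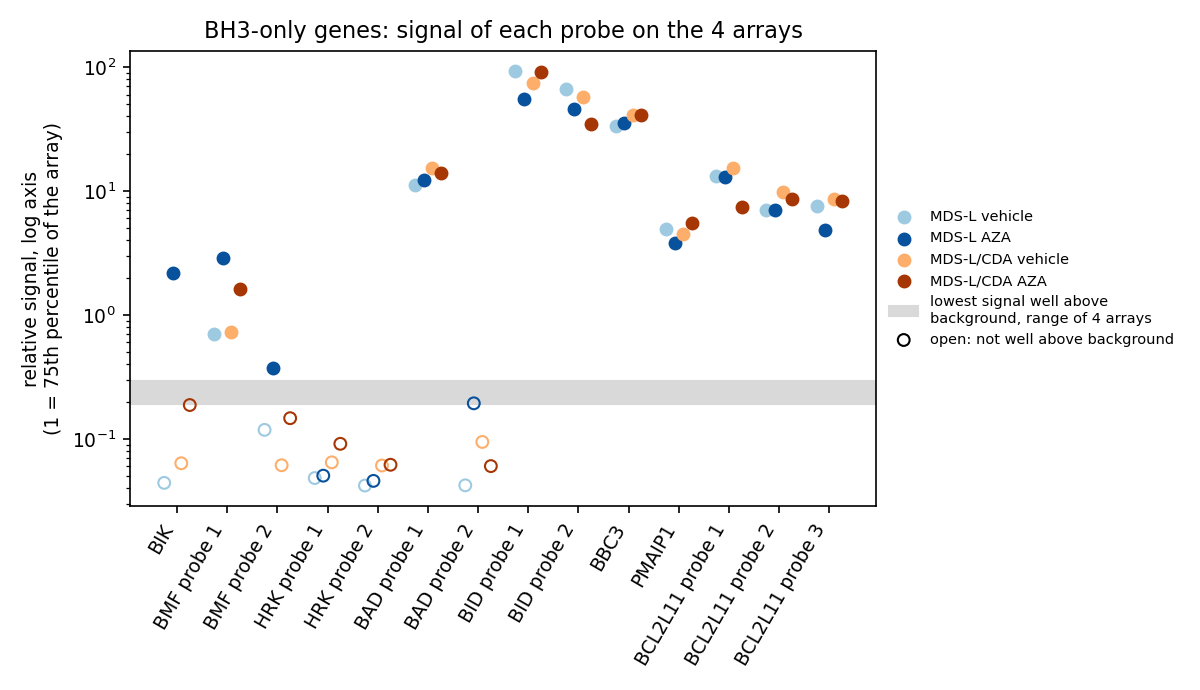
Relative signal (log axis, 1 = 75th percentile of the array) of the 14 probes of the BH3-only genes on the 4 arrays, 1 point per array, filled where well above background and open where not. The grey band spans the lowest signal well above background, from 0.190 to 0.296. BIK has 1 filled point, at 2.17 in MDS-L AZA.

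BIK, a sensitizer that sits mainly at the endoplasmic reticulum, was measured on 1 array only. Its relative signal was 0.0442 with vehicle and 2.17 with AZA in MDS-L cells, and 0.0636 with vehicle and 0.188 with AZA in MDS-L/CDA cells. The MDS-L AZA array stood apart, and the other 3 values were not well above background. With this background subtraction, the BIK signal was thus at least 11.5-fold higher with AZA in MDS-L cells. With another background correction, normexp, an offset of 50 was added to every signal, and the computed ratio was 2.90. The BIK signals before scaling were 115 with AZA and 2.32 with vehicle, so an offset of that size by itself lowers the ratio. The 2.90 is not a lower bound, and no bound was computed with normexp. No ratio could be given in MDS-L/CDA cells, where both arrays were below background. Between the AZA arrays of the 2 lines, the BIK signal was at least 7.36-fold higher in MDS-L than in MDS-L/CDA cells. The scanner software's own error of the BIK signal was 10.2% in MDS-L AZA and 33.4% in MDS-L/CDA AZA. It was 101% in MDS-L vehicle and 100% in MDS-L/CDA vehicle, where the error was as large as the signal. BIK had 1 probe in 1 spot per array, so no other probe of the gene was at hand. The detection pattern of BIK, well above background in MDS-L AZA and on no other array, was shared by 1065 of the 43311 gene names (2.46%).

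BMF, a sensitizer that is bound to the cytoskeletal motor through dynein light chain until cells are stressed, was the member with measured signal on all 4 arrays that differed most. The relative signal of its probe 1 was 0.699 with vehicle and 2.87 with AZA in MDS-L cells, and 0.723 with vehicle and 1.61 with AZA in MDS-L/CDA cells. Both vehicle arrays were alike, and both AZA arrays were above them. The AZA/vehicle ratio was 4.11 in MDS-L and 2.23 in MDS-L/CDA cells. On the log2 scale these ratios were 2.04 and 1.15, beside a standard deviation of 0.37 and 0.51 for a difference of 2 spots of that brightness. For relative signals under 2, the spread came from only 6 replicated probes on each vehicle array and 8 on MDS-L/CDA AZA. The ratio in MDS-L cells was 1.84 times that in MDS-L/CDA cells, a difference that could not be tested with 1 array per condition. Probe 2 of BMF was well above background in MDS-L AZA only, at 0.375, against 0.118 with vehicle in the same line and 0.0613 and 0.147 on the vehicle and AZA arrays of MDS-L/CDA cells. It was at least 1.98-fold higher with AZA in MDS-L cells and gave no ratio in MDS-L/CDA cells.

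HRK, a sensitizer known from neurons and blood progenitors deprived of growth factor, was not measured. Probe 1 lay between 0.0483 and 0.0913 and probe 2 between 0.0420 and 0.0619 over the 4 arrays, and none of the 8 values was well above background. Of the 43311 gene names, 25958 (59.9%) were likewise not well above background on any array. BAD, a sensitizer that is switched off by phosphorylation under growth factor signalling, had a relative signal of 11.2 with vehicle and 12.2 with AZA in MDS-L cells, and 15.4 with vehicle and 13.9 with AZA in MDS-L/CDA cells for probe 1. These 4 values lay within 1.37-fold of each other, and the AZA/vehicle ratio was 1.09 in MDS-L and 0.899 in MDS-L/CDA cells. Probe 2 of BAD, assigned to another transcript, was below background throughout, at 0.0422 to 0.194.

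PMAIP1 encodes NOXA, a sensitizer that binds MCL1. Its relative signal was 4.94 with vehicle and 3.81 with AZA in MDS-L cells, and 4.52 with vehicle and 5.55 with AZA in MDS-L/CDA cells. The AZA/vehicle ratio was 0.772 in MDS-L and 1.23 in MDS-L/CDA cells, so it lay on opposite sides of 1 in the 2 lines. Probes printed within 6 rows and 6 columns of the PMAIP1 spot had median log2 ratios of -0.36 in MDS-L and 0.28 in MDS-L/CDA cells, close to the -0.37 and 0.30 of PMAIP1. After the median of those neighbours was subtracted, the log2 ratios of PMAIP1 were -0.014 and 0.016.

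BID, an activator that is cleaved by caspase 8 and so links death receptors to mitochondria, was read by 2 probes. Probe 1 had a relative signal of 92.1 with vehicle and 55.7 with AZA in MDS-L cells, and 74.97 with vehicle and 90.4 with AZA in MDS-L/CDA cells. Probe 2 had 66.3, 46.2, 57.1 and 34.6 on the same arrays. In MDS-L cells both probes were lower with AZA, with ratios of 0.605 and 0.696. They parted in MDS-L/CDA cells, with a ratio of 1.21 for probe 1 and 0.606 for probe 2. The difference between the log2 ratios of both probes was 0.99 in MDS-L/CDA cells and 0.20 in MDS-L cells. Among 2008 pairs of probes of 1 gene, 7.27% differed at least as much in MDS-L/CDA cells, and among 255 pairs whose starts lay within 200 bases, 6.27% did. None of the BID ratios reached 2-fold.

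BCL2L11 encodes BIM, the activator that blood cells induce when cytokines are withdrawn, and was read by 3 probes. Probe 1 had a relative signal of 13.2 with vehicle and 13.1 with AZA in MDS-L cells, and 15.4 with vehicle and 7.38 with AZA in MDS-L/CDA cells. The MDS-L/CDA AZA array was the low one, with an AZA/vehicle ratio of 0.479, whereas the ratio was 0.992 in MDS-L cells. Probe 2 had 6.98, 6.998, 9.73 and 8.65 on the same arrays, with ratios of 1.00 in MDS-L and 0.889 in MDS-L/CDA cells. Probe 3 had 7.63, 4.87, 8.66 and 8.27, and its low array was MDS-L AZA, with ratios of 0.638 in MDS-L and 0.955 in MDS-L/CDA cells. The low value was therefore seen with 1 of the 3 probes in each line, and not with the same probe. The log2 ratios of probes 1 and 2 differed by 0.89 in MDS-L/CDA cells, which 9.26% of the 2008 pairs of probes reached.

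BBC3 encodes PUMA, an activator that binds all of the main survival proteins. Its relative signal was 33.6 with vehicle and 35.6 with AZA in MDS-L cells, and 40.7 with vehicle and 41.3 with AZA in MDS-L/CDA cells. The 4 values lay within 1.23-fold of each other, or 0.30 on the log2 scale, and the AZA/vehicle ratio was 1.06 in MDS-L and 1.01 in MDS-L/CDA cells. These ratios were smaller than the spread between spots of 1 probe.

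**Figure D2:**
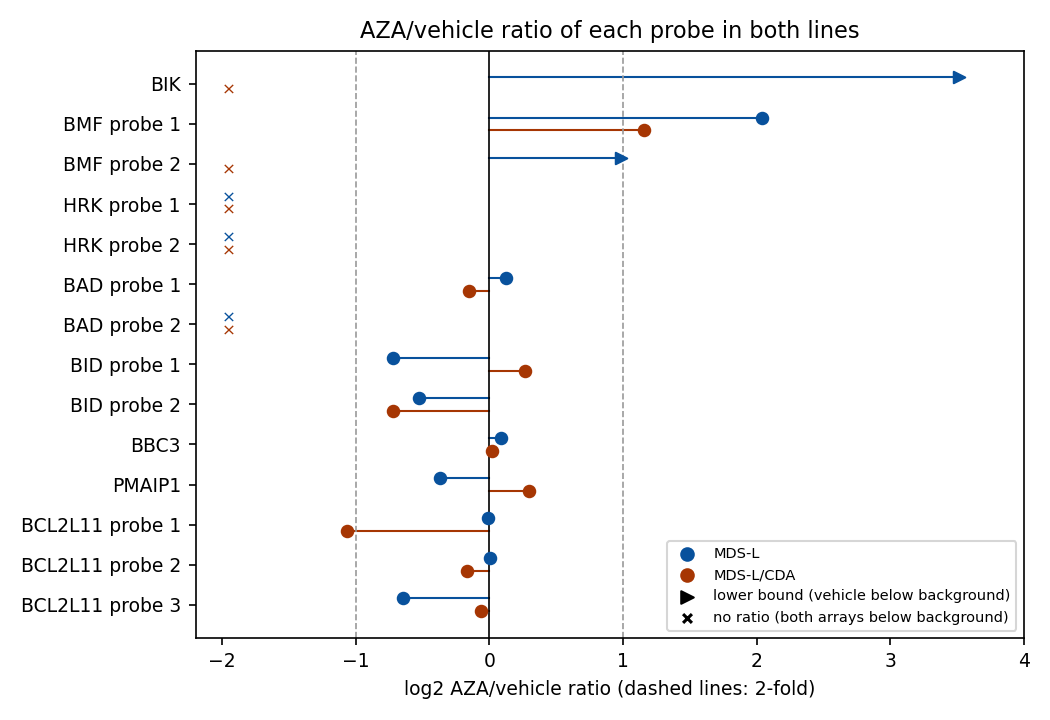
log2 AZA/vehicle ratio of each probe in MDS-L (blue) and MDS-L/CDA cells (brown), 1 array per condition, with circles for ratios, triangles for lower bounds and crosses, placed at the left edge, where both arrays were below background. Dashed lines mark 2-fold. Only BIK and BMF probe 1 lie beyond the right line, and only BCL2L11 probe 1 in MDS-L/CDA cells beyond the left one.

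The 18 ratios with both arrays well above background were set beside the spread of 2 spots of the same brightness. Of these, 10 lay within 1 standard deviation, 2 between 1 and 2, and 6 beyond 2. The 6 were BMF probe 1 in both lines, BID probe 1 in MDS-L cells, BID probe 2 in both lines and BCL2L11 probe 1 in MDS-L/CDA cells. BAD, BBC3 and BCL2L11 probe 2 lay within 1 standard deviation in both lines, so the order of their vehicle and AZA levels was not resolved.

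Both thresholds are those of the study, whose formula for the Z score is not given in the sources used here. A gene was called increased when both the ratio and the Z score of a probe reached 2, where the Z score was taken as the log2 ratio divided by the standard deviation of probes in the same of 10 bins of brightness. The probe also had to be well above background on the array with the higher signal. The ratio was used as computed even where the other array was below background. Decreased genes were called by the mirrored rule. In MDS-L cells, 7 of the 8 members were measured, and 2 of them, BIK and BMF, were called increased, beside 4.63% of 17202 genes measured. No member was called decreased, beside 3.23%. By the ratio or its lower bound alone, the same 2 members were at least 2-fold higher with AZA, beside 7.7% of genes, and none was at least 2-fold lower, beside 7.51%. The members were chosen with this contrast known, and BIK counted as measured through its AZA array alone, so nothing is read from these counts. With each array scaled to its median instead, BMF was no longer called increased and BID was called decreased in MDS-L cells.

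In MDS-L/CDA cells, 6 of the 8 members were measured. None was called increased, beside 2.49% of 15410 genes, and 1, BCL2L11 through its probe 1, was called decreased, beside 3.79%. BMF had a Z score of 1.98 and so missed the call. Of the 6 members measured, BMF was the only 1 at least 2-fold higher, beside 3.09% of genes. BCL2L11 was the 1 member at least 2-fold lower, beside 4.09%. The call of BCL2L11 was lost with normexp and its offset of 50, where the ratio of probe 1 was 0.510. BMF was called increased with spike-in scaling or with the authors' value table. Without AZA, none of the 6 members measured differed at least 2-fold between the vehicle arrays of the 2 lines, beside 6.04% of 16034 genes.

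With 1 probe per gene, the brightest, the median log2 ratio of the 7 measured members was 0.08 in MDS-L cells, beside -0.13 over all 17172 genes measured. In MDS-L/CDA cells the median over 6 members was 0.15, beside 0.02 over 15393 genes. Both medians changed sign under other settings. Of the members, 4 of 7 and 4 of 6 had a ratio above 1. Apart from BIK and BMF, the probes of the members had ratios from 0.605 to 1.09 in MDS-L cells.

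**Figure D3:**
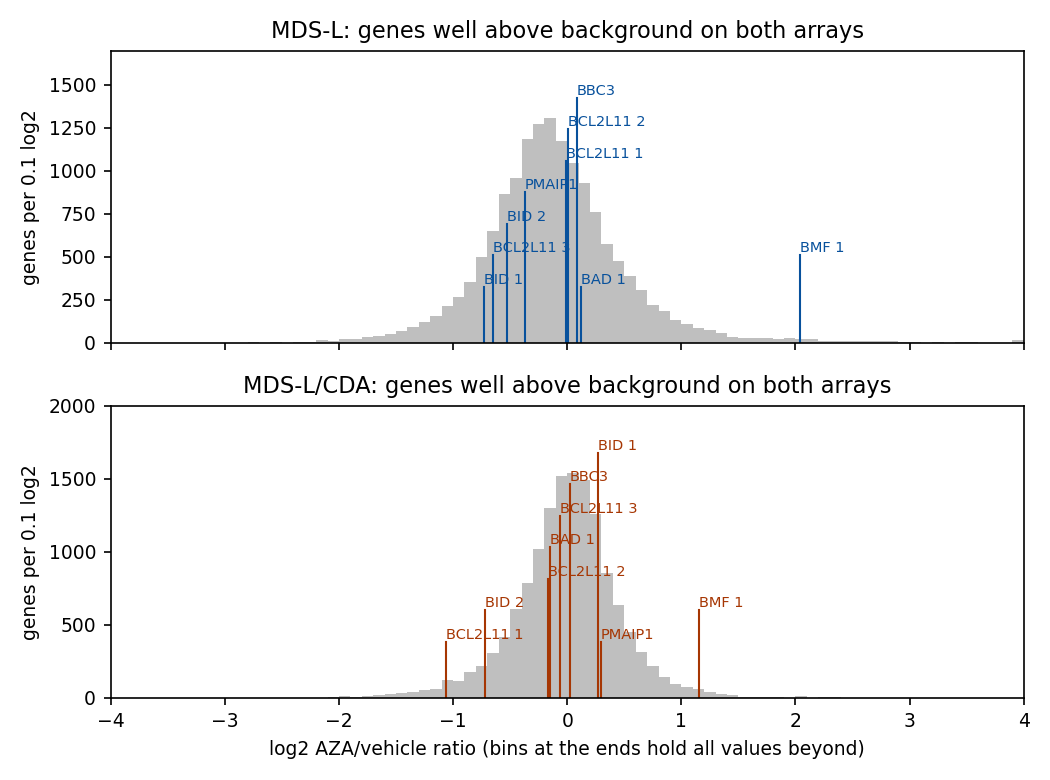
Number of genes per 0.1 of log2 AZA/vehicle ratio (grey bars) for genes well above background on both arrays of a line, with the probes of the BH3-only genes marked by lines and probe numbers where a gene has several. BMF probe 1 stands at 2.04 in MDS-L and at 1.15 in MDS-L/CDA cells, and BCL2L11 probe 1 at -1.06 in MDS-L/CDA cells, while BIK has no ratio of this kind.

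The proteins that BH3-only proteins act on, act through or are induced by were taken from a list of 43 genes, written with earlier results of these arrays known. In MDS-L cells 41 were measured, 3 were called increased and none decreased, beside 4.63% and 3.23% of all genes measured, and their median log2 ratio was -0.13. In MDS-L/CDA cells 35 were measured, none was called increased and 2 were called decreased, beside 2.49% and 3.79%, with a median of 0.02. Among the 6 survival proteins, BCL2L2, which encodes BCL-w, was called increased in MDS-L cells, from 0.272 to 1.19 (4.36-fold), and was below background on both MDS-L/CDA arrays. None of the 3 effectors BAX, BAK1 and BOK and none of the 8 partners, such as the dynein light chains that hold BMF, was called in either line. Of the 15 apoptosome and caspase genes, none was called in MDS-L cells.

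Of the 11 transcription factors known to drive BH3-only genes, EGR1 and JUN were called increased in MDS-L cells. EGR1, an immediate early factor, had a relative signal of 0.382 with vehicle and 4.14 with AZA in MDS-L cells (10.8-fold). The AZA array of MDS-L/CDA cells gave 0.682 for EGR1, at least 2.28-fold above its vehicle array, where EGR1 was below background, and EGR1 was not called there. JUN was below background in MDS-L vehicle and 0.296 in MDS-L AZA, at least 1.56-fold higher. Its call rests on a computed ratio of 7.20, taken over a vehicle signal below background, and the lower bound does not reach 2-fold. FOXO3, a driver of BIM and PUMA expression, was called decreased in MDS-L/CDA cells by 1 of its 3 probes, with a ratio of 0.467, and its brightest probe had a ratio of 1.19.

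Of 8 markers of myeloid progenitors, 7 were well above background on all 4 arrays and MPO on none, and the summed relative signal of the list was between 164 and 201. The 7 did not move together, since KIT was called increased in both lines, 47.3-fold in MDS-L and 3.58-fold in MDS-L/CDA cells, and CD38 was called decreased in MDS-L cells, with a ratio of 0.359. Of 8 markers of T cells, B cells, epithelium and fibroblasts, 6 were not well above background on any array. CD3D was measured in MDS-L AZA alone, where it was at least 23.5-fold higher than with vehicle. The summed relative signal of these 8 markers was 0.959 with vehicle and 6.85 with AZA in MDS-L cells, and 1.25 with vehicle and 1.45 with AZA in MDS-L/CDA cells, so it was highest on the array where BIK and BMF were highest. Its part in the BIK and BMF values was not tested.

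The genes whose profiles over the 4 arrays were most like those of BIK and BMF were sought among 17352 genes, by the distance between log2 signals centred on their mean and floored at the lowest signal well above background. For BIK the closest 5 were GJA4, GPR20, UGT1A6, ESPNL and MT1H, at distances of 0.0097 to 0.037. All 5 were well above background in MDS-L AZA only, at relative signals from 2.11 to 2.24, so the likeness rests on 1 measured value per gene. For BMF the closest were TREML2, LGALS2, CXCL3, PFKM and GGTLC1, at distances of 0.13 to 0.17. Their AZA/vehicle ratios were 3.56 to 4.76 in MDS-L cells and 2.10 to 2.47 in MDS-L/CDA cells, where those of LGALS2 are lower bounds. The distance is a description over 4 arrays.

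Genes whose brightest probe lay within 200 kb of the brightest probe of a member were then listed, and only that probe was used. Around BIK on chromosome 22, 10 genes had a probe, 7 of them were measured in both lines, and 1, SCUBE1, was called increased in MDS-L cells. SCUBE1, 67.8 kb from the BIK probe, had a relative signal of 0.673 with vehicle and 2.99 with AZA in MDS-L cells, and 0.675 with vehicle and 1.102 with AZA in MDS-L/CDA cells. The nearest gene, MCAT, 3.64 kb from the BIK probe, had a ratio of 0.539 in MDS-L cells and was not called. Around BMF on chromosome 15, 14 genes had a probe, 5 were measured in MDS-L cells, and 1, PAK6, was called increased there. PAK6, 189 kb from the BMF probe, was measured in MDS-L AZA alone, at 0.775, at least 4.08-fold above vehicle. None of the neighbours of BIK or BMF was called in MDS-L/CDA cells. Around BCL2L11, 14 genes had a probe, 8 were measured, and 1, named ENST00000371162 by the array design, was called decreased in MDS-L/CDA cells with a ratio of 0.391. Its ratio in MDS-L cells was 0.298, from 2.35 to 0.701, which missed the call on the Z score. Around BAD, 32 genes had a probe and 24 were measured in MDS-L cells, of which 1, TEX40, at least 5.67-fold higher, was called increased and 1, RPS6KA4, with a ratio of 0.345, decreased. In MDS-L/CDA cells 21 were measured and 1, named ENST00000492980 by the array design, was called increased, 3.13-fold. No neighbour of HRK, BID, BBC3 or PMAIP1 was called in either line. Among all genes measured, 4.63% were called increased and 3.23% decreased in MDS-L cells, and 2.49% and 3.79% in MDS-L/CDA cells. These shares count a call of any probe of a gene, whereas a neighbour was called by its brightest probe alone. With windows this small, nothing is read from the counts of neighbours.

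**Figure D4:**
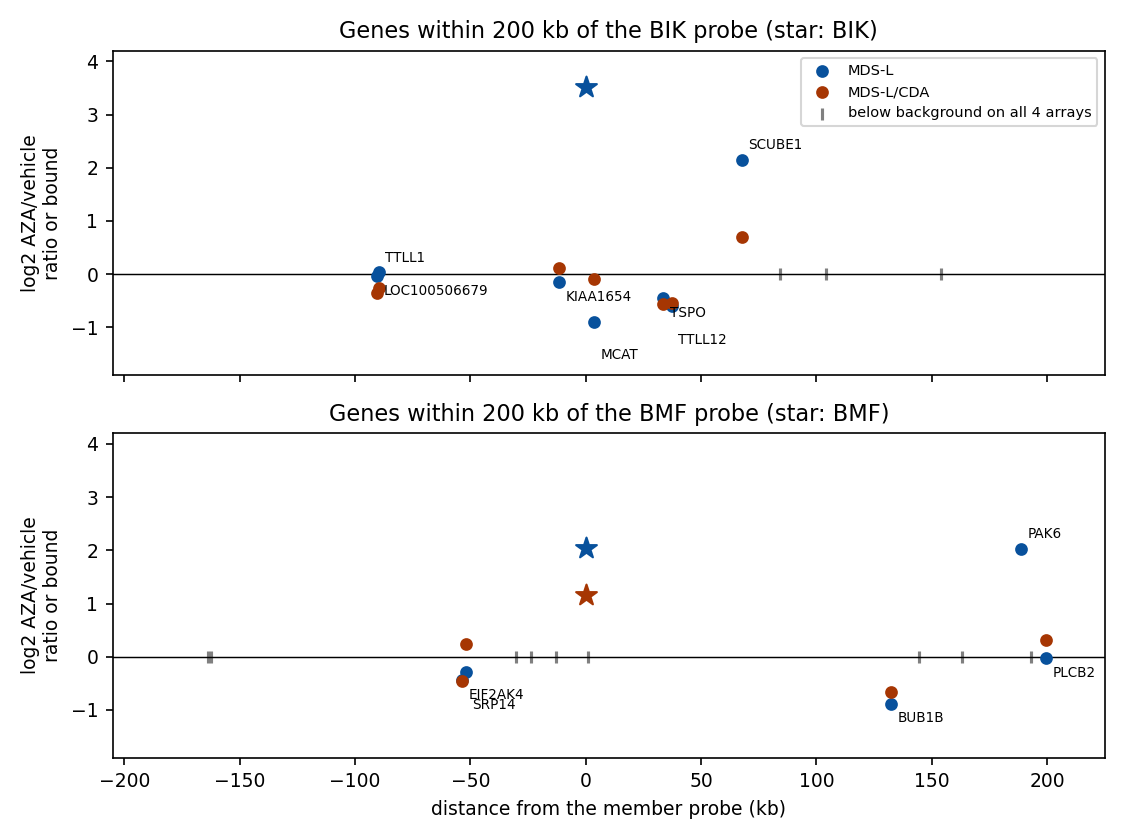
log2 AZA/vehicle ratio, or its bound where 1 array was below background, of genes within 200 kb of the BIK probe (top) and of BMF probe 1 (bottom) against their distance in kb, in MDS-L (blue) and MDS-L/CDA cells (brown), with the member as a star and grey ticks for genes below background on all 4 arrays. SCUBE1, 4.44-fold, and PAK6, at least 4.08-fold, are the neighbours called increased in MDS-L cells.

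AZA, once built into DNA, traps DNA methyltransferases, so that CpG methylation is lost as cells divide, and the CpG content before the start sites of the members was therefore counted. RefSeq promoter entries on GRCh38.p14 gave 13 start sites for 7 members, and BIK had no entry. The 250 bases before a start site held 11 CpG at the median of all 35116 entries. PMAIP1 had 36, BCL2L11 34, HRK 22 and BBC3 4. BAD had 20 and 17 at its 2 start sites, and BID had 30, 26, 25, 24 and 4 at 5. BMF, the member at least 2-fold higher with AZA in both lines, had 26 at start site 1 and none at start site 2. Both windows are printed 5′ to 3′ so that this difference can be seen, with each CpG in capitals.
BMF start site 1, chr15:40108880-40109129, - strand: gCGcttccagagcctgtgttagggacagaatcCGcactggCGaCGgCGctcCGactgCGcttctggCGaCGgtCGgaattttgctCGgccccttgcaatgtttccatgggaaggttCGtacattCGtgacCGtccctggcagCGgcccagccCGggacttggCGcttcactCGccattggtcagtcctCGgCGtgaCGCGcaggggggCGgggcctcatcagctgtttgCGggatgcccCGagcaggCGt
BMF start site 2, chr15:40106967-40107216, - strand: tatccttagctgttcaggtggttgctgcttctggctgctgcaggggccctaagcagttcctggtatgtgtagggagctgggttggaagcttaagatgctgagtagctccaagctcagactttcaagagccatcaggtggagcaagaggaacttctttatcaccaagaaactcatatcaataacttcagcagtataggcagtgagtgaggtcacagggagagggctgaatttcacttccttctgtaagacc
Of all entries, 19.6% held 26 CpG or more and 6.06% held none. PMAIP1 and BCL2L11, with the highest counts among the members, were not called increased in either line. A relation between CpG count and AZA/vehicle ratio was not tested. Methylation was not measured on these arrays, and the CpG counts say nothing of its level.

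**Figure D5:**
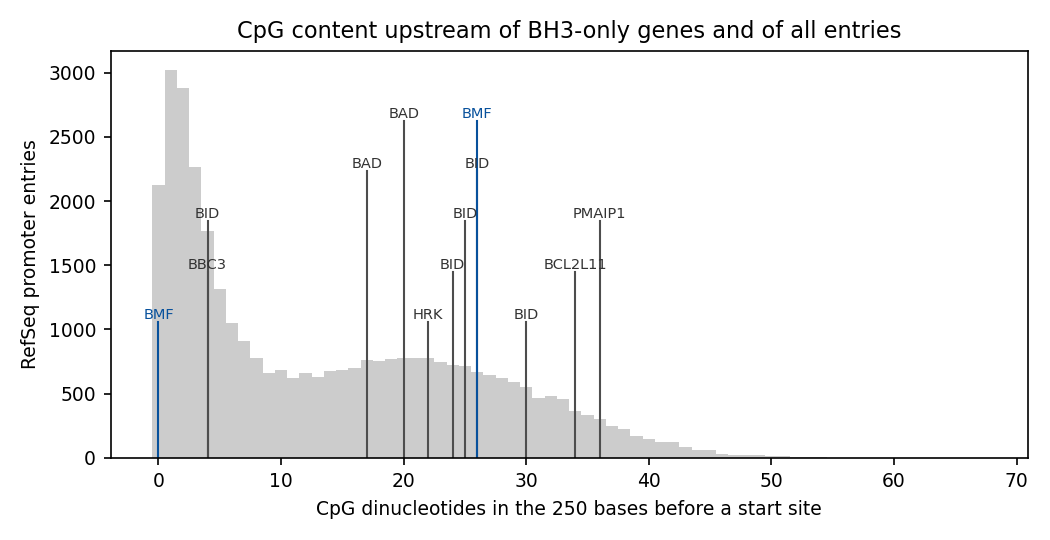
Number of RefSeq promoter entries (bars) by the number of CpG in the 250 bases before the start site, with the 13 entries of the 7 members marked by lines and names, BMF in blue. The members reach from 0 to 36 CpG, and the 2 entries of BMF stand at 0 and 26.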

How the data were processed

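The authors deposited the scanner output of 4 one-colour arrays, made with Agilent Feature Extraction 10.7.1.1, as the background-subtracted intensity of every spot, not normalized between arrays. They also deposited a value table of intensity for 51680 probes, whose sorted columns lie within 0.039 log2 units of each other. Its scale is linear, and it was used as an alternative. Control spots and outlier spots were removed (16 probes lost, 58185 kept), log2 processed intensity was averaged over spots, and the 75th percentile, which was 52.5, 52.9, 40.8 and 37.3 on the 4 arrays, was subtracted. Z scores used 10 bins of mean brightness, a choice made here, as was the scaling. The members, gene lists and tests were chosen with earlier results of these data known. Named genes are all members, pathway genes that passed the rule, the 5 genes most like BIK and BMF, and a few others named after their values were seen (MCAT, CD3D, KIT, CD38 and the called neighbours of members). Some genes that passed the rule or were on the lists are not reported here. The calling rule was tested on simulated data. The number of arrays limits the precision. Python 3.11.15, pandas 2.3.3, numpy 2.4.6, matplotlib 3.10.9 and, for normexp, R 4.3.3 with limma 3.58.1 were used.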

Additional observations from a re-analysis of the deposited data

Results flagged for a closer look

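For 4 probes the AZA/vehicle ratio lay above 1 in one line and below 1 in the other, and the difference was not tested, since each line had 1 array per condition. The log2 ratio in MDS-L minus that in MDS-L/CDA cells was 0.28 for BAD probe 1, -0.99 for BID probe 1, -0.67 for PMAIP1 and 0.17 for BCL2L11 probe 2. BID probe 2, whose start lies 83 bases from that of probe 1, gave 0.20 and was lower with AZA in both lines. The value of PMAIP1 came with a median of neighbouring spots of -0.36 in MDS-L and 0.28 in MDS-L/CDA cells.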

How the results depend on the processing

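No paired analysis was possible because each condition had 1 array. Of 96 alternative values of the 7 counts and medians, 13 moved by more than the spread of spots or by over 1.5 times. Both medians of the members changed sign under 2 alternatives, in MDS-L cells from 0.08 to -0.46 with median scaling and -0.016 with normexp, and in MDS-L/CDA cells from 0.15 to -0.066 with the mean over all measured probes and -0.025 after subtraction of neighbouring spots. With each array scaled to its median, which put the median of all probes measured in MDS-L cells at -0.69 in place of -0.15, 1 member (BIK) was increased and 1 (BID) decreased in MDS-L cells. In MDS-L cells 1 member was also increased when both arrays had to be above background (BMF) or every measured probe had to pass (BIK). In MDS-L/CDA cells 1 member (BMF) was increased with spike-in scaling, with the authors' value table, without a Z score and with Z scores in 1 or 20 bins, and 0 were decreased with normexp, with a Z score in 1 bin and when every measured probe had to pass. Of 180 alternative values of the 20 probe ratios, 159 stayed within the spread and 21 moved. BMF probe 1 ranged from 2.22 to 4.59 in MDS-L and from 1.46 to 2.27 in MDS-L/CDA cells, and BIK from 2.90 to 55.0 in MDS-L cells. The lowest value of each of these ranges was that of normexp, computed with its offset of 50. The sign of the log2 ratio was not the same under every alternative for BAD probe 1 and BBC3 in either line, BCL2L11 probes 1 and 2 in MDS-L cells and BCL2L11 probe 3 in MDS-L/CDA cells. The subtraction of neighbouring spots was chosen after seeing the data. The causes were not tested.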
